A study of Mus musculus with 2 samples.

Results

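The neural microRNAs (miRNAs) of the jejunal muscle wall were examined as every mature entry, over all gene copies and both hairpin arms, of miR-9, miR-124, miR-128, miR-129, miR-132, miR-137, miR-138, miR-212 and miR-219a. These 9 miRNAs gave 21 of the 1080 mature entries in the deposited table. They were sorted by what they are known for in nerve cells into a neuron-identity class (miR-9, miR-124, miR-129 and miR-137, 9 entries), an activity-linked class (miR-132 and miR-212, 4 entries) and the others (miR-128, miR-138 and miR-219a, 8 entries).

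Small RNA was sequenced from the tunica muscularis of the jejunum of C57BL/6 mice at the age of 15 days. Both genotypes carried the smMHC Cre-eGFP transgene, in which Cre recombinase and green fluorescent protein are driven by the promoter of Myh11, the smooth muscle myosin heavy chain gene. In the Dnmt1-KO group Cre had removed the floxed (lox/lox) alleles of Dnmt1, the enzyme that copies DNA methylation at cell division, whereas Dnmt1-WT littermates carried the transgene with intact Dnmt1. Each genotype gave 1 library, the study's methods name animals of both sexes for each genotype without saying that their RNA was pooled, and no estimate of the variation among mice is possible.

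The deletion was thus directed to cells that express Myh11 and not to neurons, and a library holds the RNA of every cell in the muscle wall. The strain label is the same for both libraries and a free-text label of both names the mutant genotype, so groups were taken from the genotype label. Small RNA reads do not measure Dnmt1, and the labels were not checked against it.

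The myenteric plexus, the network of enteric neurons and glia that drives gut movement, lies between the muscle layers and is isolated with them. A miRNA is cut from a hairpin RNA whose 5p and 3p arms can each be loaded into an Argonaute protein, where the seed (bases 2 to 8) selects the mRNAs that are repressed. Among the miRNAs studied here, miR-9 and miR-124 promote neuronal differentiation, miR-137 regulates neuronal maturation, and miR-132 and miR-212 come from a single transcript that the activity-dependent factor CREB induces. miR-138 restrains growth of dendritic spines, miR-128 limits neuronal excitability, and miR-219a drives the maturation of oligodendrocytes, cells of the central nervous system. These miRNAs are not limited to neurons, and miR-132, for example, is also made by endothelial and immune cells.

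The mature sequences are shown because the arms of a hairpin, and the products of some gene copies, are separate molecules, and the arms carry different seeds. RefSeq (GRCm38.p6) held the sequence of 18 of the 21 entries, and miR-124-3p, miR-124-5p and miR-129-1-3p were not matched. The seed is in capitals in each line, written 5′ to 3′, and the neuron-identity class comes first.
mmu-miR-9-5p: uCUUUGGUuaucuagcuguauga
mmu-miR-9-3p: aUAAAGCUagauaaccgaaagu
mmu-miR-129-5p: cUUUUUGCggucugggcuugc
mmu-miR-129-2-3p: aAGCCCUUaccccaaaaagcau
mmu-miR-137-5p: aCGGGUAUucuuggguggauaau
mmu-miR-137-3p: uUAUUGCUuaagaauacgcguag
The activity-linked class follows, in which the 3p products share the seed AACAGUC.
mmu-miR-132-5p: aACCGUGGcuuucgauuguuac
mmu-miR-132-3p: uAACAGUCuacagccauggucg
mmu-miR-212-5p: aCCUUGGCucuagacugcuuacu
mmu-miR-212-3p: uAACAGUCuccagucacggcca
The others include a second pair with a common seed, GGGGCCG, in the 5p products of the Mir128 copies.
mmu-miR-128-3p: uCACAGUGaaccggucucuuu
mmu-miR-128-1-5p: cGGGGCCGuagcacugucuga
mmu-miR-128-2-5p: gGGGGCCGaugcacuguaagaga
mmu-miR-138-5p: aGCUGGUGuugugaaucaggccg
mmu-miR-138-1-3p: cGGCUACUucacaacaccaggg
mmu-miR-138-2-3p: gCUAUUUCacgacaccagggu
mmu-miR-219a-5p: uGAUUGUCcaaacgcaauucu
mmu-miR-219a-1-3p: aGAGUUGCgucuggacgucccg

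The hairpins of the miRNAs on which the results turn are shown with the mature arms in capitals. Mir212 (chr11:75173388-75173478) and Mir132 (chr11:75173682-75173747) lie on the plus strand of GRCm38, 203 bases apart, in an intron of the noncoding gene 1700016P03Rik.
Mir212: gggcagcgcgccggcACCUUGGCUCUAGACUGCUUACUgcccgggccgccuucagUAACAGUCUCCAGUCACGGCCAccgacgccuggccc
Mir132: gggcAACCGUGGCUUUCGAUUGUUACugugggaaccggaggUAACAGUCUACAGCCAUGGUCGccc
miR-138-5p is encoded by Mir138-1 (chr9:122682876-122682974, plus strand, in an exon of the transcribed pseudogene Gm47135) and by Mir138-2 (chr8:94324311-94324381, plus strand, in an exon of the noncoding gene C78859). Their 5p arms are identical and their 3p arms are not.
Mir138-1: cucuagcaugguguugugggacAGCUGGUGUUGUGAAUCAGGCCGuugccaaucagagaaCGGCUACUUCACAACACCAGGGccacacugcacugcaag
Mir138-2: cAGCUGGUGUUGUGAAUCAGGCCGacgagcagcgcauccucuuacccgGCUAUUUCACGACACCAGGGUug
miR-9 has 3 copies with the same mature arms, of which Mir9-2 (chr13:83738814-83738885, plus strand, in an exon of the noncoding gene C130071C03Rik) is shown.
Mir9-2: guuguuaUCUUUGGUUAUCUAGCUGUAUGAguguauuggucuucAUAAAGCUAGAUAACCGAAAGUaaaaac

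Levels are given in the deposited unit, in which 1 read was worth 1.00284 in the Dnmt1-WT library and 0.99718 in the Dnmt1-KO library, so that a value is close to a read count. The deposited values added up to 5741906 for Dnmt1-WT and 4754677 for Dnmt1-KO, so the deposited scale does not set the totals equal. Setting them equal would multiply every KO/WT ratio by 1.21 (a log2 shift of 0.27). The intervals beside ratios are exact 95% intervals for the read counts behind them (Clopper-Pearson). They cover counting error only and carry no information on how animals of a genotype differ, and with 1 library per genotype no p-value is given.

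Marker miRNAs of other cell types also differed between the libraries. The 8 smooth muscle marker entries with a mean of at least 10 (of miR-143, miR-145a, miR-133a, miR-133b and miR-1a) were all lower in Dnmt1-KO on the deposited scale, and the list summed to 2217800 against 1446714. All 6 leukocyte entries with that mean (miR-142a, miR-223, miR-150 and miR-155) were higher, with list sums of 1701.8 and 4936.0, as were all 4 red cell entries (miR-451a, miR-144 and miR-486a), with sums of 12745 and 47217. Of 7 epithelial entries (miR-200 family) 5 were higher and 2 lower, with list sums of 1087.1 and 1313.4. The part of these shifts in the neural miRNA values was not tested, and in bulk tissue fewer cells of a type cannot be told apart from less RNA per cell.

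The 21 neural entries together came to 12393 for Dnmt1-WT and 12118 for Dnmt1-KO, a KO/WT ratio of 0.978 (95% interval 0.9535 to 1.0027). They made up 0.216% and 0.255% of the reads of each library, so the sum lies slightly lower or higher in Dnmt1-KO according to whether the totals are left as deposited or made equal. Among the 17 entries whose mean reached 10, 9 were higher and 8 lower in Dnmt1-KO on the deposited scale. The counting interval lay above 1 for 7 of the 17, lay below 1 for 4 and spanned 1 for 6. With equal totals 13 were higher and 4 lower, with the interval above 1 for 11 and below 1 for 2.

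Only miR-128-1-5p was at least 2-fold higher in Dnmt1-KO, against 11.4% of the 534 mature entries with a mean of at least 10, and only miR-138-5p was at least 2-fold lower, against 8.99% of them. With 17 entries, 1 in each direction is near the background. Once totals were made equal, 4 passed 2-fold upward (miR-132-3p, miR-212-3p, miR-128-1-5p and miR-138-2-3p), against 19.7% of the same mature entries. None passed it downward, against 4.31%, which is again near the background. The counting intervals of these 4 all reached below 2-fold, with lower limits of 1.94, 1.79, 1.46 and 1.03 in the order named. On the deposited scale the median log2 ratio of the 17 entries was 0.06. It was 0.04 over the 522 of the 534 mature entries that were above 0 in both libraries, whose 10th and 90th percentiles were -0.94 and 0.93. The median thus lay close to that of mature entries in general.

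**Figure D1:**
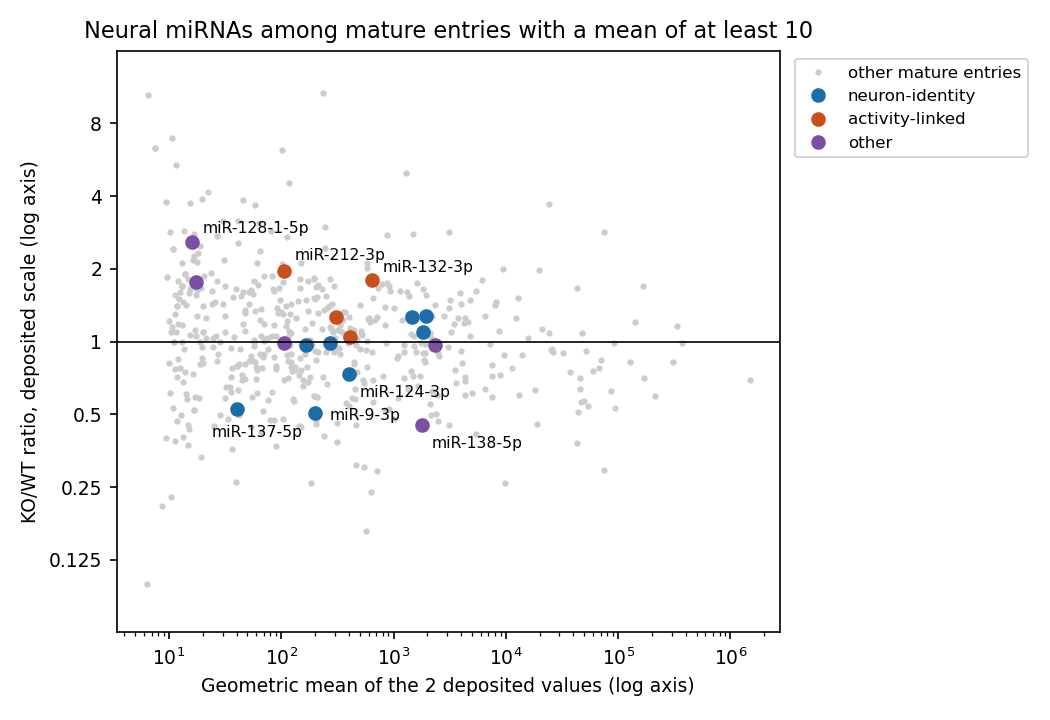
Each point is a mature entry with a mean of at least 10 and a value above 0 in both libraries (522 entries), with the geometric mean of its Dnmt1-WT and Dnmt1-KO values on the horizontal log axis and its KO/WT ratio on the vertical log axis. The neural miRNAs (coloured by class) are spread among the others, and among them miR-138-5p stands lowest at 0.453 and the low-count miR-128-1-5p highest at 2.59.

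In the Dnmt1-WT library, miR-138-5p was the most abundant neural miRNA, followed by miR-128-3p. miR-9-5p and miR-129-5p came next with overlapping counting intervals, then miR-129-2-3p, and then miR-132-3p, miR-124-3p and miR-132-5p, of which neighbours overlapped. In Dnmt1-KO, miR-128-3p and miR-129-5p stood highest and overlapped, ahead of miR-9-5p and miR-129-2-3p, and miR-138-5p had moved to the fifth place. miR-132-3p stood sixth in both libraries, but only in Dnmt1-KO was it clear of its neighbours, as miR-132-5p, miR-124-3p and miR-212-5p overlapped one another below it.

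**Figure D2:**
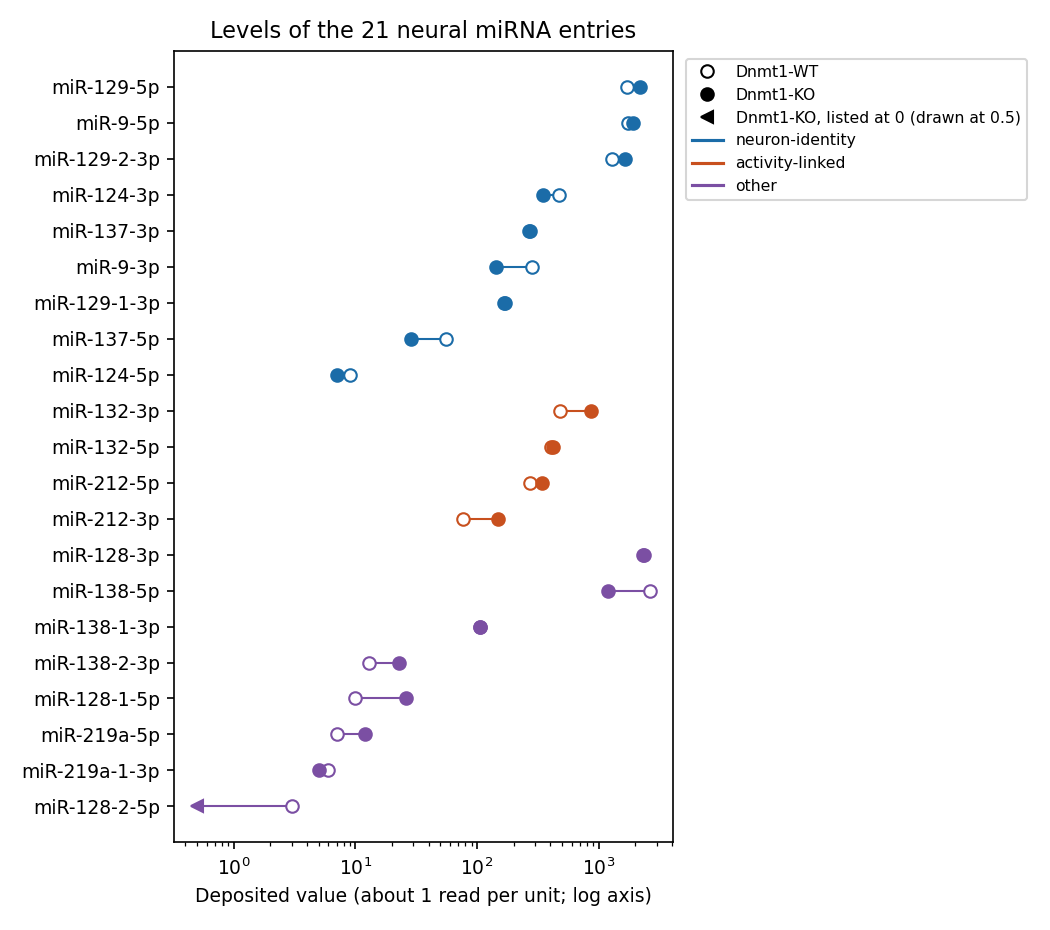
Deposited value of each of the 21 neural entries on a log axis, with an open circle for Dnmt1-WT and a filled circle for Dnmt1-KO (1 library each), coloured by class and sorted by mean within it. Levels run from 3 or fewer for miR-128-2-5p, drawn as a triangle where it is listed at 0, to 2637.5 for miR-138-5p in Dnmt1-WT.

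Among the neuron-identity miRNAs, the abundant miR-9 and miR-129 products were somewhat higher in Dnmt1-KO, miR-124-3p was lower on the deposited scale, and miR-9-3p stood at 0.504 of its Dnmt1-WT level. mmu-miR-9-5p read 1751.0 in Dnmt1-WT and 1913.6 in Dnmt1-KO, a ratio of 1.09 (1.02 to 1.17). Its rank among all mature entries was 108 and 99. By contrast mmu-miR-9-3p, cut from the opposite arm of the same hairpins, read 282.8 and 142.6, a ratio of 0.504 (0.409 to 0.619). This was the 28th lowest ratio among the 310 mature entries with a mean of at least 100 and a value above 0 in both libraries.

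mmu-miR-129-5p, which represses a dendritic potassium channel in hippocampal neurons, read 1705.8 and 2181.8, a ratio of 1.28 (1.20 to 1.36). mmu-miR-129-2-3p read 1292.2 and 1630.9, a ratio of 1.26 (1.17 to 1.36). The ratios of these arms differed by 0.02 on the log2 scale (-0.12 to 0.16), so they moved together within counting error. mmu-miR-129-1-3p, the 3p product named for the other copy, read 170.0 and 165.0, a ratio of 0.971 (0.774 to 1.20), which becomes 1.17 with equal totals.

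mmu-miR-124-3p, the characteristic miRNA of central neurons, read 470.3 and 346.0, a ratio of 0.736 (0.639 to 0.847). With equal totals the ratio was 0.888 and its interval spanned 1 (0.771 to 1.02), so its lower value depends on the scale. Its difference from miR-9-5p does not: miR-124-3p moved by -0.57 on the log2 scale relative to miR-9-5p (-0.79 to -0.35). mmu-miR-137-3p read 271.8 and 269.2, a ratio of 0.990 (0.834 to 1.18) that becomes 1.20 (1.007 to 1.42) with equal totals. mmu-miR-137-5p, its less abundant arm, read 55.2 and 28.9, a ratio of 0.524 (0.322 to 0.837), whose interval reaches 1.0103 with equal totals. mmu-miR-124-5p read 9.0 and 7.0, too few for a direction.

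The activity-linked miRNAs were the class with the highest summed ratio, and it was the 3p arms that carried it. mmu-miR-132-3p, which promotes neurite growth, read 481.4 in Dnmt1-WT and 866.5 in Dnmt1-KO, a ratio of 1.80 (1.61 to 2.02). This was the 24th highest of the 310 ratios. mmu-miR-212-3p, with the same seed, read 76.2 and 149.6, a ratio of 1.96 (1.48 to 2.62) and the 19th highest. The difference between the 2 ratios was within counting error (-0.12 on the log2 scale, -0.55 to 0.30).

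The 5p arms of these hairpins had lower ratios than the 3p arms. mmu-miR-132-5p read 403.1 and 419.8, a ratio of 1.04 (0.906 to 1.20) that becomes 1.26 (1.09 to 1.45) with equal totals, and mmu-miR-212-5p held 271 and 345 reads, a ratio of 1.27 (1.08 to 1.49). Together the AACAGUC-seed products read 557.6 and 1016.1, a ratio of 1.82 (1.64 to 2.02). The entries nearest to miR-132-3p in both libraries, by distance between log2 levels, were miR-134-5p (0.18 log2 units away, 530.5 and 804.7), miR-203-3p (407.2 and 822.7) and miR-540-3p (400.1 and 842.6).

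Among the other miRNAs, mmu-miR-138-5p had the lowest ratio of the 17 neural entries whose mean reached 10. It read 2637.5 in Dnmt1-WT and 1194.6 in Dnmt1-KO, a ratio of 0.453 (0.423 to 0.485), the 17th lowest of the 310. Its rank by level went from 89 to 130. With equal totals the ratio was 0.547 (0.510 to 0.586), still below 1 but no longer past 2-fold. miR-138-5p was 1.51 times as abundant as miR-9-5p in Dnmt1-WT and 0.624 times as abundant in Dnmt1-KO, a relative change of -1.27 on the log2 scale (-1.41 to -1.13) that no scaling of the libraries can alter. The entries nearest to it were miR-24-2-5p (0.41 log2 units away, 2032.8 and 1333.2), miR-328-3p (2850.1 and 1578.5) and miR-29a-3p (3072.2 and 1531.2).

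mmu-miR-128-3p read 2369.7 and 2287.5, a ratio of 0.965 (0.911 to 1.02) that becomes 1.17 with equal totals. mmu-miR-138-1-3p read 106.3 and 104.7, a ratio of 0.985 (0.745 to 1.303) that becomes 1.19 with equal totals, while the 5p product, which cannot be assigned to either copy, had the lower ratio given above. The remaining entries were at the edge of detection. mmu-miR-128-1-5p read 10 and 25.9, a ratio of 2.59 with the wide interval of 1.21 to 6.01, and mmu-miR-138-2-3p read 13.0 and 22.9. mmu-miR-219a-5p read 7.0 and 12 and mmu-miR-219a-1-3p 6.0 and 5.0. mmu-miR-128-2-5p had a value of 3.0 in the Dnmt1-WT library and was listed at 0 in the other. A count of 0 there allows up to 3 reads at 95% confidence when only an upper limit is set.

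**Figure D3:**
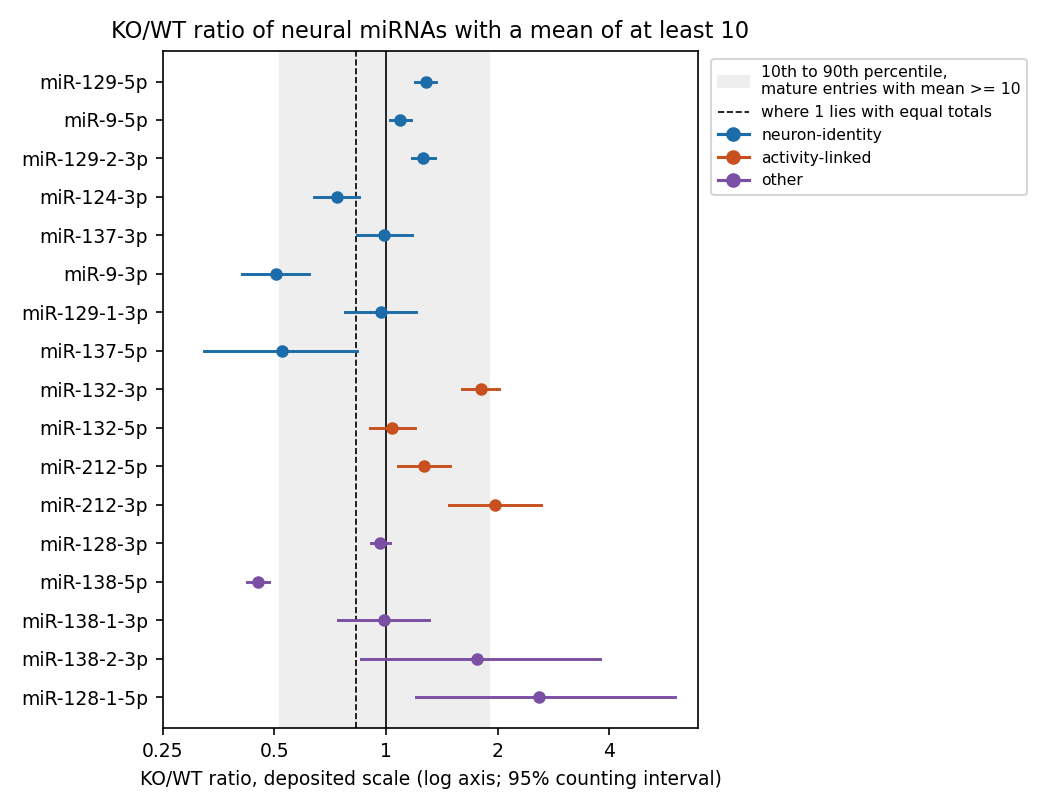
KO/WT ratio on the deposited scale (log axis) of the 17 neural entries with a mean of at least 10, with exact 95% counting intervals, coloured by class; the grey band runs from the 10th to the 90th percentile of mature entries with a mean of at least 10 and the dashed line marks equality once library totals are made equal. miR-138-5p and, just outside the edge, miR-9-3p lie left of the band, miR-128-1-5p and, just outside the edge, miR-212-3p lie right of it, and miR-132-3p lies inside its right end.

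Between classes, the summed ratio was 1.11 (1.07 to 1.15) for the neuron-identity miRNAs (6008.1 and 6685.0), 1.44 (1.34 to 1.55) for the activity-linked miRNAs (1232.5 and 1779.9) and 0.709 (0.679 to 0.740) for the others (5152.5 and 3652.6). Subtracting log2 ratios removes the library scale. The activity-linked class lay 0.38 above the neuron-identity class on the log2 scale (0.26 to 0.49) and 1.03 above the others (0.91 to 1.15), and the others lay -0.65 from the neuron-identity class (-0.73 to -0.57). These intervals again hold counting error only.

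The classes were not uniform inside. Of the 8 neuron-identity entries with a mean of at least 10, 3 were higher and 5 lower on the deposited scale, with a median log2 ratio of -0.03 that becomes 0.24 with equal totals. All 4 activity-linked entries were higher on that scale, with a median of 0.59, though the counting interval of miR-132-5p spanned 1. Of the 5 other entries 2 were higher and 3 lower, with a median of -0.02 that becomes 0.25. By family, the summed ratio was 1.011 (0.9505 to 1.075) for miR-9, 0.736 (0.640 to 0.847) for miR-124, 1.26 (1.20 to 1.32) for miR-129 and 0.912 (0.777 to 1.07) for miR-137. It was 1.45 (1.33 to 1.59) for miR-132, 1.42 (1.23 to 1.63) for miR-212, 0.971 (0.917 to 1.03) for miR-128 and 0.480 (0.449 to 0.512) for miR-138. Equal totals multiply each of these by 1.21, which takes miR-137 and miR-128 from below to above 1 and leaves the direction of the rest. The lower sum of the last class thus came from miR-138-5p, and the higher sum of the first from miR-129.

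The balance of 5p and 3p arms compares products of the same miRNA family inside a library and does not depend on the scale. In miR-9, miR-128, miR-129 and miR-138 the arms were summed over gene copies, so arm use and copy use cannot be told apart there. The balance differed between the libraries in most of the neural families. Of the 7 families with both arms at a mean of at least 10, the arm ratios differed at least 2-fold in 3 (miR-9, miR-138 and miR-128), against 22.1% of the 172 hairpin families on the table with such arms. They differed at least 1.5-fold in 6 of the 7, against 45.9%. With both arms at a mean of at least 100, 2 of 5 neural families were at least 2-fold apart against 19.4% of 72, and 4 of 5 at least 1.5-fold apart against 43.1%. The median absolute log2 difference was 0.92 in the 7 neural families and 0.53 over the 172.

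In miR-132 the 5p arm made up 45.6% of reads in Dnmt1-WT (42.3% to 48.9%) and 32.6% in Dnmt1-KO (30.1% to 35.3%), a shift of 0.79 toward 3p on the log2 scale (0.54 to 1.04). In miR-212, the neighbouring hairpin, the 5p share was 78.1% (73.4% to 82.3%) and 69.7% (65.4% to 73.7%), a shift of 0.63 toward 3p (0.17 to 1.09). The 2 shifts differed by 0.16 (-0.37 to 0.68), within counting error. Both hairpins thus held relatively more of the AACAGUC-seed arm in Dnmt1-KO, although 3p is the more abundant arm of miR-132 and the less abundant arm of miR-212.

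miR-9 moved the other way, with a 5p share of 86.1% (84.5% to 87.6%) in Dnmt1-WT and 93.1% (91.9% to 94.1%) in Dnmt1-KO, a log2 shift of -1.12 (-1.42 to -0.81). In miR-138 the 5p share was 95.7% (94.8% to 96.4%) and 90.3% (88.6% to 91.9%), a shift of 1.24 toward 3p (0.87 to 1.61) with the lower 5p level beside summed 3p levels of 119.3 and 127.6. In miR-137 the minor 5p arm made up 16.9% and 9.70%, a shift of 0.92 (0.23 to 1.61). In miR-128 it made up 0.547% and 1.12%, a shift of -1.04 (-2.01 to -0.08) that rests on 13 and 26 reads. miR-129 was the family without a shift beyond counting error, with 5p shares of 53.8% and 54.9% (-0.06, -0.19 to 0.08). Of the 6 families with a shift beyond counting error, 4 held relatively more 3p in Dnmt1-KO and 2 (miR-9 and the low-count miR-128) relatively less. Over the 172 families such intervals excluded equal arms toward 3p in 28.5% and away from it in 23.3%, so a shift beyond counting error was common on the table. miR-124 and miR-219a had too few reads of an arm to be compared.

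**Figure D4:**
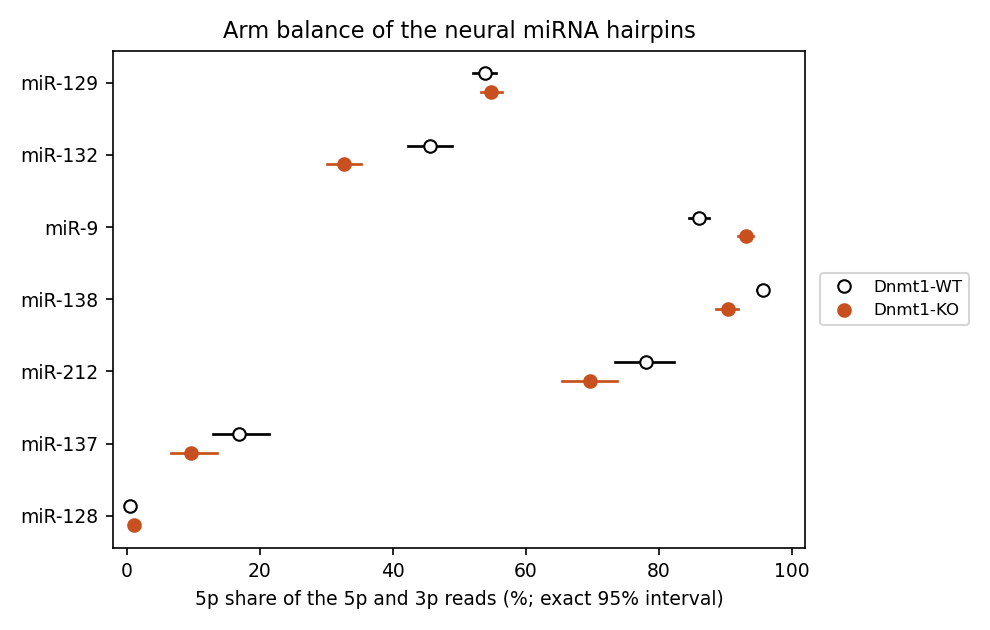
Share of 5p reads among the 5p and 3p reads of each neural miRNA family with both arms at a mean of at least 10, in percent with exact 95% intervals, for Dnmt1-WT (open) and Dnmt1-KO (filled). The share falls from 45.6% to 32.6% in miR-132, rises from 86.1% to 93.1% in miR-9 and is 53.8% and 54.9% in miR-129, where the intervals overlap.

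Copies of a gene can be told apart only where their arms differ. Of the 3p reads of miR-129, the entry miR-129-1-3p held 11.7% in Dnmt1-WT (10.05% to 13.4%) and 9.16% in Dnmt1-KO (7.87% to 10.6%), a log2 difference of -0.39 (-0.71 to -0.06). The miR-129-2-3p sequence matches the Mir129-1 hairpin with 1 substitution, C20U, counted from the 5′ end of miR-129-2-3p. The values of both entries also lay up to 0.496 and 0.482 of a read from a whole number of reads, while the other 19 entries lay within 0.06, so the split between these entries is uncertain. Of the 3p reads of miR-138, miR-138-1-3p held 89.1% (82.0% to 94.1%) and 82.0% (74.3% to 88.3%), a difference within counting error (-0.84, -1.89 to 0.22). Its sequence differs from the best match in the Mir138-2 hairpin at 2 positions (C7U and A13G, counted from the 5′ end of miR-138-1-3p).

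A further list of miRNAs known from nervous tissue, endocrine cells or glia (miR-7a, miR-7b, miR-135a, miR-135b, miR-153, miR-218, miR-326, miR-338, miR-344, miR-383, miR-448, miR-488, miR-551b, miR-598, miR-708, miR-873a, miR-1264 and miR-1298) leaned lower on the deposited scale. Of its 23 entries with a mean of at least 10, 5 were higher and 18 lower, with a median log2 ratio of -0.28. The median over the 522 mature entries described above was 0.04. With equal totals 11 of the 23 were higher and 12 lower, with a median of -0.0048. That scaling shifts every mature entry alike, by 0.27, so the list lay below the general median by the same distance on either scale. As deposited, 0 were at least 2-fold higher and 5 at least 2-fold lower, beside the backgrounds of 11.4% and 8.99%, and with equal totals these counts were 1 and 2, beside 19.7% and 4.31%. The abundant miR-7a-5p (5179.0 and 3551.3) and miR-7b-5p (5137.2 and 3666.3) had ratios of 0.686 and 0.714.

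In the same list miR-218-5p, a miRNA of motor neurons hosted in Slit genes, read 2609.4 and 2344.4 (0.898), and miR-383-5p read 524.5 and 489.6 (0.933). miR-488-3p read 489.4 and 403.9 (0.825), and miR-338-3p, which lies in an intron of the neuronal kinase gene Aatk, read 784.2 and 543.5 (0.693). The lowest ratios among its entries with a mean of at least 100 belonged to miR-153-3p (213.6 and 95.7, 0.448), miR-326-3p (457.3 and 211.4, 0.462) and miR-708-5p (1252.5 and 657.1, 0.525). The rest of these were miR-338-5p at 0.886, miR-708-3p at 0.944 and miR-598-3p at 1.43. Set beside the members described above, miR-138-5p lay among the lowest of these neural miRNAs, and miR-132-3p and miR-212-3p lay above all 12 of them. The counting interval of miR-598-3p, the highest of the 12, was 1.10 to 1.86 and overlapped those of miR-132-3p and miR-212-3p.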

How the data were processed

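Small RNA of 1 Dnmt1-WT and 1 Dnmt1-KO jejunal muscle library was analysed. The authors deposited 1 table with a value per miRNA and library. Per the labels the libraries were made with a TruSeq Small RNA kit, the submitters' processing notes name Bowtie and mm10, and the study's methods give GRCm38/mm10. The miRNA database release, the treatment of multiply matching reads and the scaling are not given in the sources used here. A deposited unit is close to 1 read: with the best step per library (1.00284 in Dnmt1-WT, 0.99718 in Dnmt1-KO), 88.6% of 229 and 91.1% of 248 values from 20 to 300 were whole multiples within 0.06, which implies 5725617 and 4768099 reads. A count of 0 allows up to 3 reads at 95% confidence when only an upper limit is set. A column with the authors' fold changes was present and was not used.

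Ratios were computed on the deposited scale with exact conditional 95% intervals. Differences of log2 ratios have delta-method intervals. Every entry of the 9 miRNAs is given. Of these entries, those with a mean of at least 100 have intervals, and counts over lists use a mean of at least 10. For miR-138-5p and miR-132-3p the 3 nearest mature entries in log2 levels were named. The members and lists were chosen with earlier results of these data known. Mature and hairpin sequences are from RefSeq (GRCm38.p6) and locations from GENCODE M21. Interval coverage was tested on simulated counts that held counting error only, so that test does not bear on variation among libraries or animals. Python 3.11.15, NumPy 2.4.6, pandas 2.3.3, SciPy 1.17.1 and Matplotlib 3.10.9 were used. Alternatives were equal library totals with and without miR-143-3p, centring on the median, other minimums, thresholds and pseudocounts, medians, and leaving out families.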

Additional observations from a re-analysis of the deposited data

How the results depend on the processing

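With 1 library per genotype no replicate could be left out, and the intervals cover counting error only. No paired analysis was possible because each genotype had 1 library and the results come from no test. With equal library totals, the summed KO/WT ratio was 1.34 for the neuron-identity miRNAs, 1.74 for the activity-linked miRNAs, 0.856 for the others and 1.18 for all 21 entries. With totals made equal without miR-143-3p, the most abundant miRNA, these were 1.25, 1.63, 0.798 and 1.10. The order of the classes cannot change with the scale. The entries at least 2-fold higher numbered 4 with equal totals (in brackets the share of mature entries that pass the same minimum under the same setting, here 19.7%), 3 without miR-143-3p (15.5%), 2 with the median ratio set to 1 (11.8%), 0 at a minimum mean of 100 (6.39%) and 4 at a threshold of 1.5-fold (25.5%). Those at least 2-fold lower numbered 0 with either equal-total scaling (4.31% and 5.06%), 2 without a minimum (22.0%) and 3 at 1.5-fold (19.5%). The activity-linked class lay 0.62 above the neuron-identity class by medians, 0.52 with the more abundant product of each family and 0.60 without miR-129, and 0.31 to 0.39 with any other family left out, against 0.38. The cause of these differences was not tested. With equal totals the ratio passed from below to above 1 for the sum over all entries, for 4 entries (miR-128-3p, miR-137-3p, miR-129-1-3p and miR-138-1-3p) and for the medians of the neuron-identity and other classes. Depth limits miR-219a, miR-124-5p, miR-138-2-3p and the 5p products of miR-128, which had 26 or fewer reads per library.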

Other observations

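The table also holds entries whose hairpins lie antisense to those of miR-129 and miR-219a. miR-129b-5p and miR-219c-5p were each listed at 0 in Dnmt1-WT and 1 in Dnmt1-KO, so no level of these antisense products was measurable at this depth.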
